A study of Homo sapiens with 60 samples.

Results

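Aminoacyl-tRNA synthetases are the enzymes that join each amino acid to its transfer RNA. The 35 synthetase genes described here were taken by name from a fixed list, 19 for the cytosolic enzymes and 16 for the mitochondrial enzymes, out of 60675 genes in the count table. All 35 were found by symbol and all 35 passed the filter on low counts. The cytosolic genes carry a 1 at the end of their symbol, apart from FARSA and FARSB, which encode the 2 subunits of one enzyme, and the mitochondrial genes carry a 2.

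The cells were HepG2, an established human hepatocellular carcinoma line, exposed for 24 h to water extracts of medicinal plants. The single herbs were Menthae Herba and Saposhnikoviae Radix. The formulas were Okbyeongpung-san, Soyo-san, Guibi-tang and Saengmaek-san. Each was given at 3 doses, 500, 100 and 20 µg/mL, in 3 libraries a dose, a further formula, Soshiho-tang, in 1 library a dose, and 3 libraries came from cells given vehicle. These are the doses of the sample labels. The series design text adds that extracts with a 20% inhibitory concentration under 500 µg/mL were given at that concentration and at dilutions of it, so the labelled doses may be nominal for such an extract. The vehicle is dimethyl sulfoxide, given as 0.1% in the sample labels and as 2% in the series design text. The labels do not say that replicates were separate cultures, so each p-value rests on a spread between libraries that may be technical. The same 3 vehicle libraries served every comparison with vehicle. In the sample descriptions they carry a first code that no extract library shares, and what the code stands for is not given. A difference between codes and a difference between extract and vehicle therefore cannot be told apart.

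Library totals ran from 20446500 to 32386464 counts with a median of 25862335, and the 35 genes together held 0.318 to 0.375% of them. The 8 hepatocyte markers (ALB, APOB and others) all passed the filter, with a summed level of 35996 to 47995 CPM (CPM are counts scaled to a common library total). All marker sums given here use raw library totals. Fibroblast, endothelial and neural marker lists summed to at most 25.5, 6.15 and 0.47 CPM. Of 5 leukocyte markers 3 passed, with a sum of 859 to 2555 CPM of which LYZ made up 99.7 to 100.0%, while the defining markers PTPRC and CD3E did not pass. Spread beyond counting error was larger for the vehicle pairs that include replicate 1 (chi-square per degree of freedom 17.31 and 14.19) than for replicates 2 and 3 (3.214). Libraries also fell into those with lower (174.5 to 282.3 CPM) and higher (386.5 to 551.1 CPM) MALAT1, a nuclear noncoding RNA. Vehicle, Menthae Herba and Saposhnikoviae Radix were all lower, Soyo-san and Okbyeongpung-san all higher, and Saengmaek-san and Guibi-tang mixed. In bulk samples fewer cells of a type and less RNA per cell cannot be told apart.

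Each cytosolic synthetase supplies charged transfer RNA to ribosomes that translate nuclear mRNAs, and several of them sit in a multisynthetase complex held by the scaffold proteins AIMP1, AIMP2 and EEF1E1. The mitochondrial enzymes are also encoded in the nucleus and are imported to serve translation of the few mRNAs of the mitochondrial genome. GARS1 and KARS1 give rise to both cytosolic and mitochondrial forms. Mitochondria have no glutaminyl-tRNA synthetase of their own and make that charged transfer RNA with the amidotransferase of QRSL1, GATB and GATC. Many cytosolic synthetase genes are described as targets of ATF4, the transcription factor of the integrated stress response and of amino acid shortage, which binds the C/EBP-ATF response element with partner proteins.

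The letters TGATGNAA, a core of that element, were searched on both strands of RefSeq windows (GRCh38.p14) from 250 bases before to 50 bases after each gene's start. Windows were at hand for 30 of the 35 genes. The letters were present in 7 of 16 cytosolic windows (43.8%), in 1 of 14 mitochondrial windows (7.1%, YARS2) and in 1217 of 27305 genes overall (4.5%). The 7 cytosolic stretches are shown. Of these genes 5 (AARS1, CARS1, GARS1, MARS1 and TARS1) were called higher at 500 than at 20 µg/mL of Menthae Herba, beside 16.3% of all genes. IARS1 and NARS1 have the letters and did not pass that test. EPRS1 and RARS1 passed it, and their windows lacked the letters. At 500 µg/mL against vehicle TARS1, EPRS1 and RARS1 were not called. A link between the letters and the calls was not tested. Each line runs 5′ to 3′ on the gene's strand with the match in capitals.
CARS1 (chr11:3057407-3057436, minus strand): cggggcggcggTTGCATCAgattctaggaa
GARS1 (chr7:30594834-30594863, plus strand): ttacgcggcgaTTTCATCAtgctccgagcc
MARS1 (chr12:57488053-57488082, plus strand): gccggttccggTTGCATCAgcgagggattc
AARS1 (chr16:70289675-70289704, minus strand): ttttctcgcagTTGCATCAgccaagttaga
TARS1 (chr5:33440956-33440985, plus strand): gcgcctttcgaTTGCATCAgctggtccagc
IARS1 (chr9:92293692-92293721, minus strand): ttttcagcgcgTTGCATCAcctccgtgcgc
NARS1 (chr18:57621804-57621833, minus strand): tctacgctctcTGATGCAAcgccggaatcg

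In 6 of these stretches the match lies on the strand opposite to the gene, and in NARS1 it lies on the gene's strand. A match is a description of letters and not of a bound site. The letters GCGCATGC, the core bound by NRF1, a factor known for mitochondrial genes, were in 0 of 16 cytosolic windows, in 2 of 14 mitochondrial windows (14.3%, MARS2 and YARS2) and in 3.7% of all genes. The 2 matches in MARS2, one on each strand, overlap.

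In vehicle, the cytosolic genes were mostly expressed above the mitochondrial ones. Levels were compared per length, as CPM divided by the kilobases of the principal transcript. The cytosolic median was 45.1 CPM per kb (10.6 to 112) and the mitochondrial median was 11.1 (3.10 to 40.5). KARS1, the lysyl enzyme, was highest at 112 ± 1.87 (SD, n = 3), followed by QARS1, the glutaminyl enzyme, at 79.8 ± 4.61. PARS2, the mitochondrial prolyl enzyme, was lowest at 3.10 ± 0.57. IARS2, the mitochondrial isoleucyl enzyme, at 40.5 ± 1.09 lay above 9 cytosolic genes, and CARS1, the cysteinyl enzyme, at 10.6 ± 0.67 was the lowest cytosolic gene. IARS1 and GARS1 were level at 55.0 (SD 1.90 and 0.78), and many neighbours in the order lay within their spread.

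**Figure D1:**
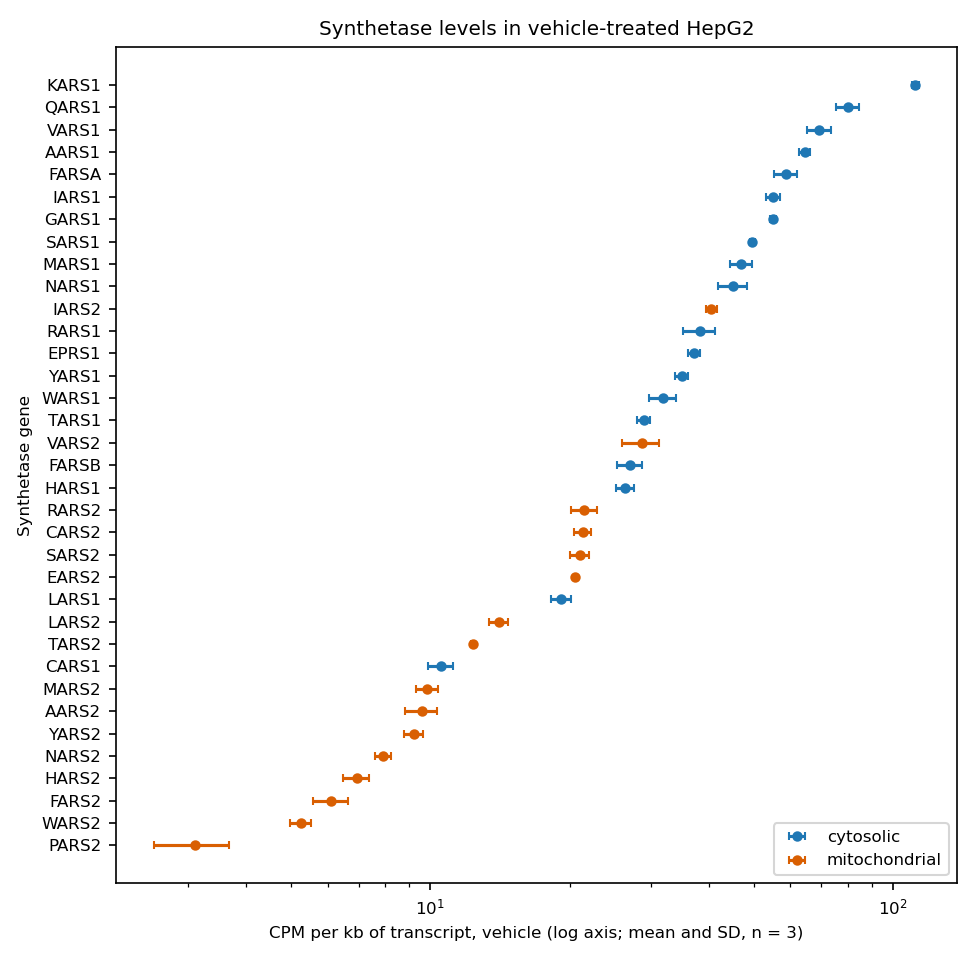
Level of each synthetase gene in vehicle, as the mean and SD of 3 libraries in CPM per kb of transcript on a log axis, cytosolic genes in blue and mitochondrial genes in orange. KARS1 (112) is highest and PARS2 (3.10) lowest, and CARS1 (10.6) is the lowest cytosolic gene.

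Set against its mitochondrial partner for the same amino acid, the cytosolic gene was higher in all 3 vehicle libraries in 16 of 17 pairs (median ratio 3.81, per length). The highest ratio was 12.3 ± 2.36 for EPRS1, the joint glutamyl and prolyl enzyme, over PARS2. CARS1 over CARS2 was the exception at 0.49 ± 0.02. The ratio was 4.77 ± 0.10 for the methionyl enzymes MARS1 and MARS2. Over all 60 libraries the members varied little: the highest library exceeded the lowest by 1.19 times for KARS1 and by 1.70 times for CARS1, the smallest and largest such ratios.

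The comparison of Menthae Herba at 500 µg/mL with vehicle asks which synthetase genes differed between the extract and vehicle libraries. Among the cytosolic genes CARS1, GARS1, MARS1, AARS1 and QARS1 rose and FARSB fell, and among the mitochondrial genes HARS2, NARS2, IARS2 and CARS2 rose and SARS2 fell. These 11 of 35 members (31.4%) stand beside 39.8% of all 16644 genes called in this comparison, 19.8% higher and 20.0% lower. The members were thus called no more often than genes at large. Of the 12 cytosolic genes described as ATF4 targets 4 rose and 0 fell (median log2 0.06), and of the 7 other cytosolic genes 1 rose and 1 fell (median 0.03). The median log2 fold change was 0.04 over the cytosolic members, 0.01 over the mitochondrial members and 0.005 over all genes. A gene is called where the adjusted p of edgeR's quasi-likelihood test (Benjamini-Hochberg over all genes) is under 0.05.

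CARS1 (chr11:3000922-3057613), the cytosolic cysteinyl enzyme, measured 26.3, 29.8 and 28.9 CPM in vehicle and 37.3, 42.7 and 39.9 CPM at 500 µg/mL of Menthae Herba. The 3 treated libraries lay above all vehicle libraries, a log2 fold change of 0.50 (SE 0.06, adjusted p = 1.52e-09). GARS1 (chr7:30594681-30634033), the glycyl enzyme, measured 146, 146 and 143 CPM in vehicle and 191, 182 and 190 CPM in the treated libraries. These groups did not overlap either, and the log2 fold change was 0.37 (SE 0.04, adjusted p = 4.65e-12). MARS1 (chr12:57475445-57517569), the cytosolic methionyl enzyme, measured 128, 144 and 138 CPM in vehicle and 177, 174 and 178 CPM in the treated libraries. All treated libraries were higher, with a log2 fold change of 0.37 (SE 0.05, adjusted p = 8.21e-09). MARS1 shares 355 exon bases with DDIT3 on the opposite strand, which rose by 0.40 in log2 (adjusted p = 0.0102), and whether reads were counted by strand is not given in the sources used here.

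FARSB (chr2:222570536-222656337), the beta subunit of cytosolic phenylalanyl-tRNA synthetase, measured 97.0, 90.1 and 86.1 CPM in vehicle and 68.5, 67.3 and 65.0 CPM at 500 µg/mL. All treated libraries were lower, at 0.735 times the vehicle level (log2 -0.44, SE 0.05, adjusted p = 7.83e-12). Its partner subunit FARSA had a log2 fold change of -0.11 (95% interval -0.21 to 0.00, adjusted p = 0.121) with libraries that overlapped. The 2 subunits form one tetrameric enzyme.

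The mitochondrial histidyl gene HARS2 measured 16.2, 17.6 and 18.4 CPM in vehicle and 20.3, 22.9 and 21.9 CPM at 500 µg/mL of Menthae Herba. All treated libraries were higher, with a log2 fold change of 0.32 (SE 0.08, adjusted p = 0.000888). HARS2 (chr5:140691426-140699318) lies head to head with HARS1, with 437 shared exon bases on opposite strands, and shares 152 bases with ZMAT2 on its own strand. HARS1 was at log2 0.05 (adjusted p = 0.424) and ZMAT2 fell by 0.19 on the log2 scale (adjusted p = 0.0126). Whether reads of either neighbour entered the HARS2 counts was not tested.

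SARS2 (chr19:38915266-38930896), the mitochondrial seryl gene, measured 42.2, 42.2 and 45.7 CPM in vehicle and 38.2, 37.8 and 36.9 CPM at 500 µg/mL. The treated libraries were all lower, with a log2 fold change of -0.20 (SE 0.06, adjusted p = 0.00434). Without vehicle replicate 3 the value was -0.16 (adjusted p = 0.0504). SARS2 shares 349 exon bases with MRPS12 on the opposite strand, which had a log2 fold change of 0.13 (adjusted p = 0.270), and 1492 bases with an unnamed gene that held 0 counts.

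NARS2, the mitochondrial asparaginyl gene, measured 20.6, 19.1 and 20.1 CPM in vehicle and 24.4, 22.3 and 23.7 CPM at 500 µg/mL, a log2 fold change of 0.23 (SE 0.07, adjusted p = 0.00716) with no overlap. The other calls were small: IARS2 0.17, AARS1 0.15, CARS2 0.15 and QARS1 0.12 in log2. The AARS1 call was lost without vehicle replicate 1 (0.13, adjusted p = 0.0628), and QARS1 without vehicle replicate 1 (0.09, adjusted p = 0.179), vehicle replicate 2 (adjusted p = 0.0838) or treated replicate 1 (adjusted p = 0.0814). CARS2 was lost without vehicle replicate 1 (0.12, adjusted p = 0.141), vehicle replicate 2 (adjusted p = 0.0525), treated replicate 1 (adjusted p = 0.0924) or treated replicate 3 (adjusted p = 0.0925). CARS1, FARSB, GARS1, MARS1, HARS2, IARS2 and NARS2 were called in every alternative tried.

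**Figure D2:**
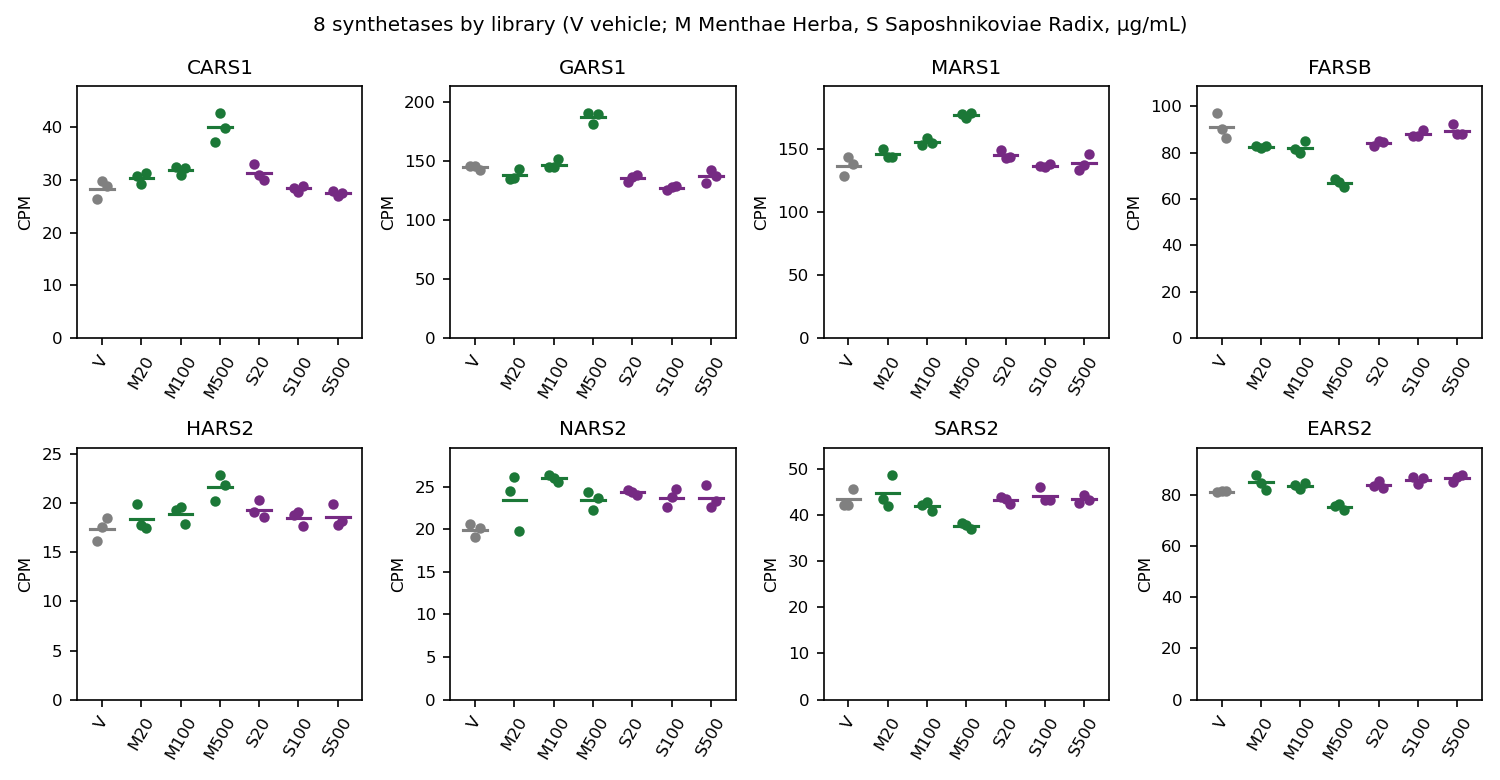
CPM of 8 synthetase genes in each library (points) with the group mean (line), for vehicle and the 3 doses of Menthae Herba and of Saposhnikoviae Radix. At 500 µg/mL of Menthae Herba CARS1, GARS1 and MARS1 lie above and FARSB lies below all libraries of the other groups shown.

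The comparison of 500 with 20 µg/mL of Menthae Herba asks for a change with dose and uses no vehicle library. Of the cytosolic genes 7 of 19 rose and 1 fell, while 1 of 16 mitochondrial genes rose and 2 fell. Together 8 of 35 were higher, beside 16.3% of all genes, and 3 were lower, beside 15.8%, so 11 were called (31.4%) beside 32.1% of all genes. The median log2 fold change was 0.06 for the cytosolic genes, -0.04 for the mitochondrial genes and -0.005 for all genes. Of the same 12 genes described as ATF4 targets 6 rose and 0 fell (median 0.13), and of the 7 other cytosolic genes 1 rose and 1 fell (median 0.02).

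GARS1 measured 135, 136 and 144 CPM at 20 µg/mL and 191, 182 and 190 CPM at 500 µg/mL, with no overlap and a log2 fold change of 0.44 (SE 0.04, adjusted p = 2.8e-14). CARS1 measured 30.7, 29.2 and 31.4 CPM at 20 µg/mL, and its log2 fold change to 500 µg/mL was 0.39 (SE 0.06, adjusted p = 5.09e-07). MARS1 rose by 0.28 (SE 0.05, adjusted p = 6.11e-06) from 150, 144 and 144 CPM. The libraries of the 2 doses did not overlap for either gene. Smaller rises were measured for AARS1, the alanyl enzyme (0.17), RARS1, the arginyl enzyme (0.16), EPRS1 (0.15) and TARS1, the threonyl enzyme (0.13). Their adjusted p ran from 0.00432 to 0.012. Of these RARS1, EPRS1 and TARS1 were not called at 500 µg/mL against vehicle. TARS1 measured 130, 123 and 122 CPM in vehicle, 110, 117 and 115 CPM at 20 µg/mL and 126, 125 and 124 CPM at 500 µg/mL.

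FARSB measured 82.99, 81.9 and 82.8 CPM at 20 µg/mL, above all 3 libraries at 500 µg/mL, and fell by 0.30 on the log2 scale (SE 0.05, adjusted p = 3.04e-07). SARS2 measured 43.4, 41.8 and 48.7 CPM at 20 µg/mL and fell by 0.25 (SE 0.06, adjusted p = 0.00066). EARS2, the mitochondrial glutamyl enzyme, measured 88.0, 84.6 and 82.1 CPM at 20 µg/mL and 75.5, 76.3 and 73.9 CPM at 500 µg/mL. It fell by 0.17 (SE 0.05, adjusted p = 0.00282) with no overlap, whereas UBFD1, which shares 370 exon bases with it on the opposite strand, rose by 0.13 (adjusted p = 0.0135). HARS2 rose by 0.23 (SE 0.08, adjusted p = 0.0165).

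The glutamyl pair therefore moved in opposite directions with dose: EPRS1 measured 186, 182 and 164 CPM at 20 µg/mL and 193, 194 and 202 CPM at 500 µg/mL. Per length, EPRS1 over EARS2 was 1.65 ± 0.06 at 20 µg/mL, 1.71 ± 0.05 at 100 µg/mL and 2.06 ± 0.09 at 500 µg/mL, and 1.81 ± 0.06 in vehicle (SD, n = 3). For CARS1 over CARS2 the ratio was 0.47 ± 0.01 at 20 µg/mL and 0.63 ± 0.07 at 500 µg/mL. Leaving out 1 library ended the call of EPRS1 (without replicate 3 at 20 µg/mL, log2 0.10, adjusted p = 0.122), RARS1 (without replicate 3 at 500 µg/mL, 0.14, adjusted p = 0.0611) and TARS1 (without replicate 1 at 20 µg/mL, 0.11, adjusted p = 0.0611). HARS2 was lost without replicate 2 at 500 µg/mL (0.19, adjusted p = 0.0929), or without replicate 2 (adjusted p = 0.0575) or 3 (adjusted p = 0.0771) at 20 µg/mL.

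**Figure D3:**
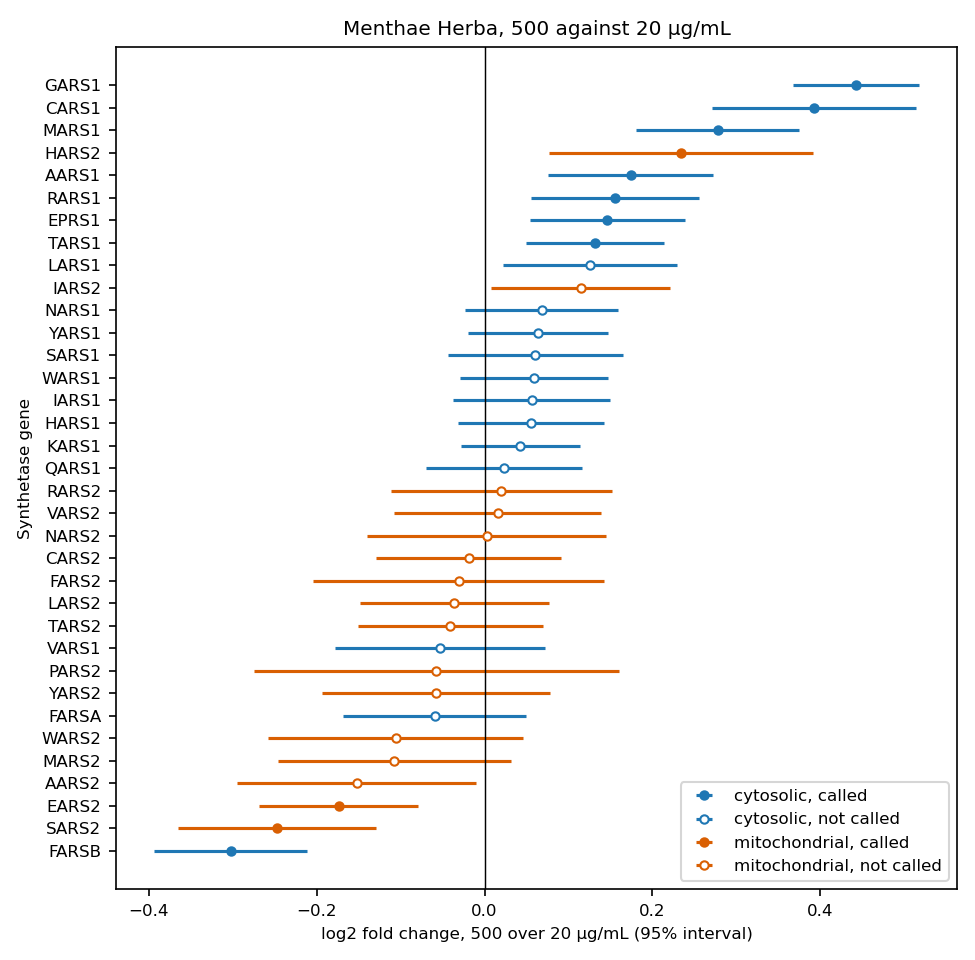
Log2 fold change of each synthetase gene from 20 to 500 µg/mL of Menthae Herba with its 95% interval, cytosolic in blue and mitochondrial in orange, filled where the adjusted p is under 0.05. GARS1 (0.44) and CARS1 (0.39) are at the top and FARSB (-0.30) is at the bottom, with SARS2 (-0.25) and EARS2 (-0.17) next to it.

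Genes of the same pathways were counted in lists chosen with earlier results of these data known. In the comparison of Menthae Herba at 500 µg/mL with vehicle, 14 of 20 tested genes of an ATF4 list rose and 2 fell, with a median log2 fold change of 0.25. Of all genes 19.8% were called higher and 20.0% lower in that comparison. ATF4 itself rose by 0.21 (adjusted p = 0.00584), ASNS, the asparagine synthetase, by 0.75 (adjusted p = 1.84e-14) and ATF3, a stress-induced factor, by 1.39 (adjusted p = 1.22e-12), while CEBPG, a partner of ATF4, fell by 0.24 (adjusted p = 0.000274) and SLC7A5, a neutral amino acid transporter, fell by 0.34 (adjusted p = 8.71e-06). With the rise in dose 10 of the 20 rose, beside 16.3% of all genes, and 3 fell, beside 15.8%. None of the 3 complex scaffolds was called in either comparison. Of 16 partners of mitochondrial translation 0 rose and 1 fell against vehicle (GATC, log2 -0.20, adjusted p = 0.00211), beside 19.8% and 20.0% of all genes.

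At the lower doses of Menthae Herba fewer members were called against vehicle. At 100 µg/mL CARS1, MARS1, QARS1, IARS2 and NARS2 rose and FARSB and RARS2 fell, 7 of 35 beside 14.0% of all genes. The count was 2 without vehicle replicate 1, 4 without replicate 1, 3 without replicate 2 and 4 without replicate 3 of the extract, and only IARS2 (log2 0.22) and NARS2 (0.38) were called in every alternative. At 20 µg/mL NARS2 rose and FARSB and TARS1 fell, 3 of 35 beside 6.83%. That count was 0 without vehicle replicate 1 or 2 or without replicate 1 or 2 of the extract. FARSB measured 81.7, 79.8 and 84.8 CPM at 100 µg/mL, close to its level at 20 µg/mL, so its lowest level was that at 500 µg/mL.

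Menthae Herba and Saposhnikoviae Radix, a second single herb, were compared directly at 500 µg/mL. With Menthae Herba 7 members were higher, beside 16% of all genes, and 4 were lower, beside 16.1%, 11 of 35 in all beside 32.1%. GARS1 measured 132, 142 and 138 CPM with Saposhnikoviae Radix, below all libraries with Menthae Herba by 0.45 in log2 (SE 0.04, adjusted p = 1.33e-14). CARS1 measured 27.9, 27.0 and 27.6 CPM and differed by 0.54 (SE 0.06, adjusted p = 1.96e-10). MARS1 differed by 0.35 (adjusted p = 5.6e-08), AARS1 by 0.19, TARS1 by 0.15 and EPRS1 by 0.12.

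FARSB measured 92.2, 87.8 and 88.0 CPM with Saposhnikoviae Radix, and was lower with Menthae Herba by 0.42 in log2 (value -0.42, SE 0.05, adjusted p = 7.05e-11). SARS2 and EARS2 each differed by -0.20. MARS2 measured 34.2, 31.2 and 34.7 CPM with Saposhnikoviae Radix and 29.1, 29.2 and 28.1 CPM with Menthae Herba. The difference of -0.22 (SE 0.07, adjusted p = 0.0115) was opposite in sign to that of MARS1. In vehicle MARS2 measured 27.85, 30.69 and 30.74 CPM, and it was not called against vehicle at 500 µg/mL of either extract. The ratio of MARS1 to MARS2 per length was 6.39 ± 0.21 with Menthae Herba at 500 µg/mL and 4.77 ± 0.10 in vehicle. The MARS2 call was lost without replicate 3 of Menthae Herba (-0.20, adjusted p = 0.0513) or of Saposhnikoviae Radix (-0.18, adjusted p = 0.0678). HARS2 (0.22) was lost without replicate 2 of Menthae Herba (adjusted p = 0.129) or of Saposhnikoviae Radix (adjusted p = 0.108), or replicate 3 of either (adjusted p = 0.0683 and 0.0871). EPRS1 was lost without each of these 6 libraries except replicate 3 of Saposhnikoviae Radix (0.09 to 0.13, adjusted p = 0.0544 to 0.179), and also with RLE scaling (adjusted p = 0.0501), with the replicate block (adjusted p = 0.0508), with only the groups compared (adjusted p = 0.0668) and with no filter (adjusted p = 0.19). Of the ATF4 list 14 of 20 genes were higher with Menthae Herba, beside 16% of all genes, and 2 were lower, beside 16.1%.

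Against vehicle, QARS1, LARS2 and NARS2 rose and SARS1 and TARS1 fell at 500 µg/mL of Saposhnikoviae Radix, 5 of 35 beside 5.80% of all genes. At 100 µg/mL CARS2 and NARS2 rose and GARS1, TARS1 and WARS1 fell (5 of 35 beside 5.47%), and at 20 µg/mL IARS2 and NARS2 rose and TARS1 fell (3 of 35 beside 7.19%). GARS1 at 100 µg/mL measured 126, 129 and 129 CPM, below all vehicle libraries, with a log2 fold change of -0.18 that was called in every alternative. The count at 500 µg/mL was 0 without vehicle replicate 1 or extract replicate 3, 2 without vehicle replicate 2, and 3 without extract replicate 1 or 2. At 100 µg/mL it was 1 without vehicle replicate 1 and 2 without vehicle replicate 2 or extract replicate 3, and at 20 µg/mL it was 5 without vehicle replicate 3. Between 20 and 500 µg/mL no member was called by edgeR or DESeq2, 1 had an unadjusted p under 0.05, and 0.397% of all genes were called.

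Saengmaek-san at 500 µg/mL gave 5 rises against vehicle (KARS1, MARS1, HARS2, IARS2 and NARS2), beside 12.6% of all genes. IARS2 (log2 0.26) and NARS2 (0.33) were called in every alternative, and the count was 3 without vehicle replicate 1 or extract replicate 1 or 2. At 100 µg/mL NARS2 alone was called (log2 0.25), beside 6.05%, but NARS2 was not called in any of the 6 fits that left out a library (0.22 to 0.27, adjusted p = 0.0516 to 0.104). The count was 0 in 5 of them and 1, another member, without extract replicate 3. At 20 µg/mL 0 were called by edgeR or DESeq2, beside 3.37%, with 4 at an unadjusted p under 0.05. Between the 20 and 500 µg/mL libraries 0 of 35 were called by edgeR, beside 1.96%, with 8 at an unadjusted p under 0.05, 1 call by DESeq2 (KARS1) and 1 without replicate 1 at 500 µg/mL.

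Guibi-tang at 500 µg/mL raised KARS1, CARS2 and NARS2 and lowered WARS1, the cytosolic tryptophanyl enzyme, 4 of 35 beside 13.4% of all genes. CARS2 (log2 0.22) and NARS2 (0.38) were called in every alternative, and the count was 2 without extract replicate 3. At 100 µg/mL CARS2 and NARS2 rose and WARS1 fell (beside 7.96%), a count of 1 without vehicle replicate 2 or extract replicate 2. At 20 µg/mL FARSA fell (beside 4.38%), a count of 0 without vehicle replicate 2 or extract replicate 2 or 3 and of 2 without extract replicate 1. With the MALAT1 class as a term in the fit the calls of WARS1 at 100 µg/mL and of FARSA at 20 µg/mL were lost. In lower MALAT1 libraries alone KARS1 and WARS1 were not called at 500 µg/mL.

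From 20 to 500 µg/mL of Guibi-tang the one member called was HARS1, the cytosolic histidyl enzyme, beside 8.12% of all genes. HARS1 measured 62.0, 58.5 and 58.1 CPM at 20 µg/mL and 70.3, 69.2 and 68.5 CPM at 500 µg/mL. The groups did not overlap, and the log2 fold change was 0.22 (SE 0.04, adjusted p = 0.000275). HARS2, across the shared start, measured 18.46, 18.52 and 17.64 CPM and then 18.02, 19.17 and 17.79 CPM, with overlap. DESeq2 called 4 members (EPRS1, HARS1, KARS1 and NARS2). Without replicate 1 at 20 µg/mL 4 members were called, and without replicate 2 at 500 µg/mL 3. In lower MALAT1 libraries alone, 2 at 500 and 1 at 20 µg/mL, the log2 fold change of HARS1 was 0.17 (adjusted p = 0.215).

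Saengmaek-san and Guibi-tang, both formulas of several herbs, differed at 500 µg/mL in 5 members, beside 4.65% of all genes. EPRS1 (0.16), IARS1 (0.21), MARS1 (0.18), EARS2 (0.19) and IARS2 (0.19) were all higher with Saengmaek-san in log2. Here the isoleucyl pair, IARS1 and IARS2, and the glutamyl pair, EPRS1 and EARS2, each moved in the same direction. None of the 5 was called without replicate 1 of Saengmaek-san, 1 was without replicate 2 and 3 were without replicate 3 of Guibi-tang. In both groups replicates 1 and 2 were of the lower MALAT1 class and replicate 3 of the higher.

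Soyo-san at 500 µg/mL raised NARS2 and lowered SARS1, the cytosolic seryl enzyme, and SARS2, 3 of 35 beside 21.5% of all genes, and the count was 0 without extract replicate 1 or 2. SARS2 measured 37.0, 38.1 and 39.7 CPM, below all vehicle libraries (log2 -0.18). With the MALAT1 class as a term in the fit the SARS2 value was -0.06 (adjusted p = 0.570) and that of NARS2 0.23 (adjusted p = 0.0504), and neither was called. No member was called by edgeR at 100 µg/mL (beside 8.31%, 8 at an unadjusted p under 0.05, 2 by DESeq2) or at 20 µg/mL (beside 3.88%, 4 at an unadjusted p under 0.05, 1 by DESeq2). The 100 µg/mL count was 1 without vehicle replicate 3 or extract replicate 2, and the 20 µg/mL count was 1 without vehicle replicate 1 or 3. The comparison of 500 with 20 µg/mL called 0 by edgeR or DESeq2 beside 7.58%, with 3 at an unadjusted p under 0.05.

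With Okbyeongpung-san 4 cytosolic members fell against vehicle at each dose. At 500 µg/mL AARS1, GARS1, SARS1 and WARS1 fell and IARS2 rose, 5 of 35 beside 9.11% of all genes. With the MALAT1 class as a term AARS1 was at -0.07 (adjusted p = 0.383) and WARS1 at -0.09 (adjusted p = 0.266), and both calls were lost. All 4 that fell are among the 12 cytosolic genes described as ATF4 targets, of which 0 rose, whereas at each lower dose 3 of these 12 and 1 of the 7 other cytosolic genes, FARSA, fell. Of the 20 tested genes of the ATF4 list 3 fell (ASNS, SESN2 and SLC7A1) and 0 rose. At 100 µg/mL FARSA, GARS1, SARS1 and TARS1 fell and IARS2, MARS2 and NARS2 rose (7 of 35 beside 12.9%), and at 20 µg/mL FARSA, SARS1, TARS1 and WARS1 fell and IARS2 rose (5 of 35 beside 6.99%). The class term ended the call of FARSA at 100 µg/mL (-0.14, adjusted p = 0.11) and those of FARSA (-0.11, adjusted p = 0.266) and WARS1 (-0.11, adjusted p = 0.151) at 20 µg/mL.

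The counts for Okbyeongpung-san moved with single libraries. At 500 µg/mL the count was 1 or 2 without any 1 of the 6 libraries, at 100 µg/mL it was 4 without extract replicate 3, and at 20 µg/mL it was 2 without vehicle replicate 1 or extract replicate 3 and 1 without vehicle replicate 2. IARS2 (log2 0.27) and NARS2 (0.28) at 100 µg/mL were called in every alternative. Vehicle held only lower MALAT1 libraries and Soyo-san and Okbyeongpung-san only higher ones, so the class term in these comparisons rests on the Saengmaek-san and Guibi-tang groups that hold both. Comparing 500 with 20 µg/mL, 0 members were called by edgeR or DESeq2 (1 at an unadjusted p under 0.05), beside 0.024% of all genes.

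Soyo-san and Okbyeongpung-san, both of the higher MALAT1 class, were compared directly at 500 µg/mL. CARS1 (0.20) and GARS1 (0.17) were higher and FARSB (-0.16) was lower with Soyo-san, 3 of 35 beside 7.49% of all genes. CARS1 measured 30.4, 29.1 and 30.7 CPM with Soyo-san and 25.1, 27.6 and 25.7 CPM with Okbyeongpung-san, with no overlap (SE 0.06, adjusted p = 0.0321). Without replicate 1 of Okbyeongpung-san the count was 1.

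**Figure D4:**
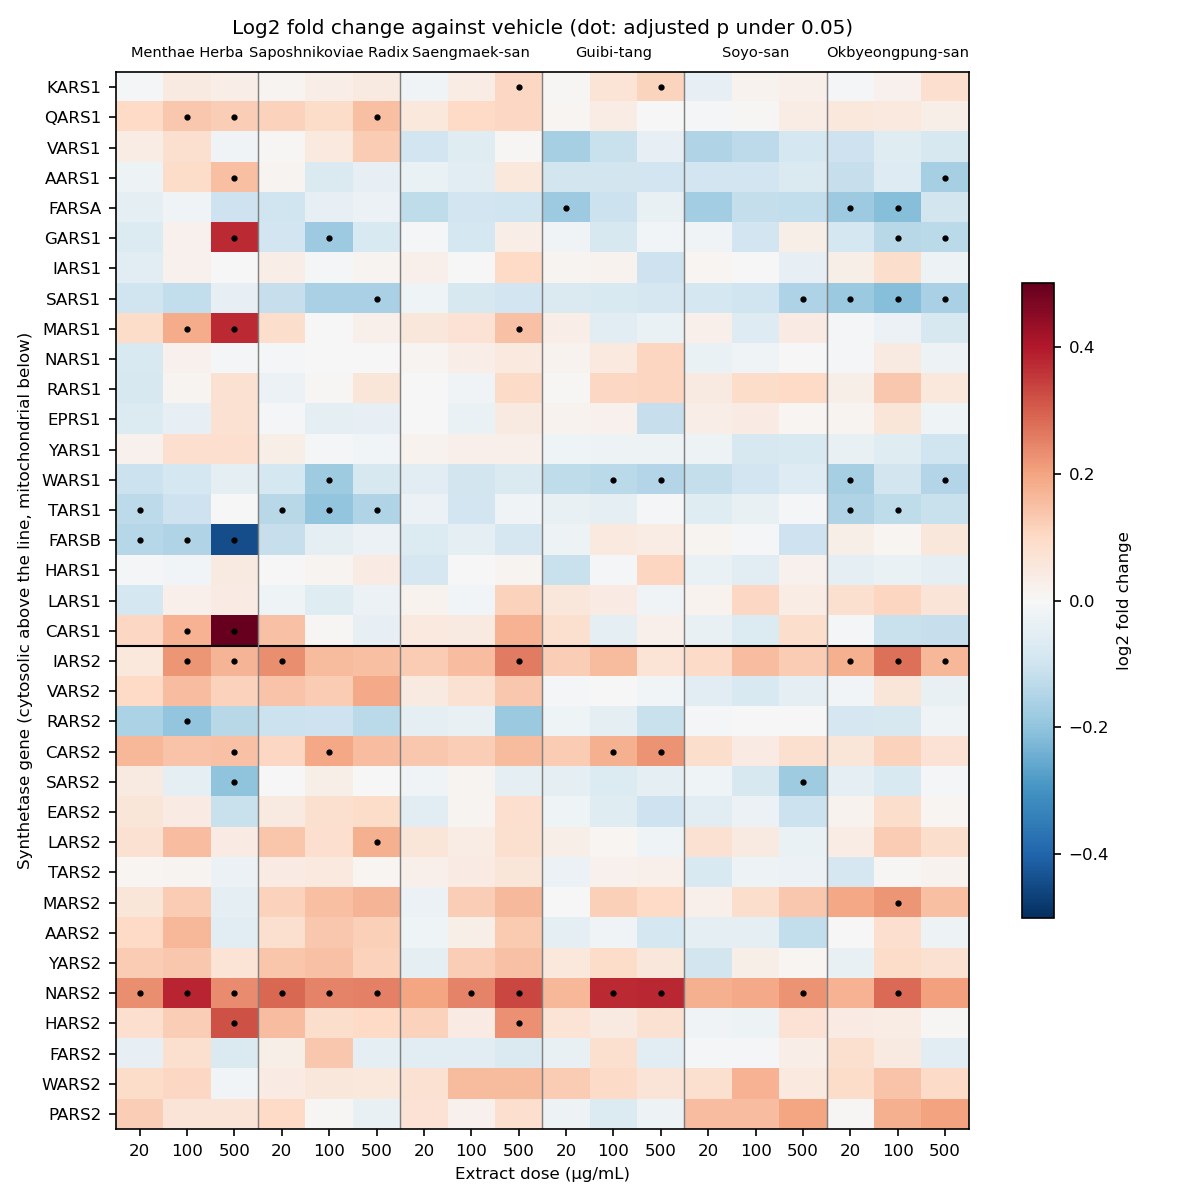
Log2 fold change against vehicle of the 35 synthetase genes (rows) for 6 extracts at 20, 100 and 500 µg/mL (columns), red higher and blue lower, with a dot where the adjusted p is under 0.05. CARS1 (0.50) and FARSB (-0.44) at 500 µg/mL of Menthae Herba are the extremes, GARS1 and MARS1 stand at 0.37 there, and the NARS2 row runs from 0.16 to 0.38 against the shared vehicle libraries.

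NARS2 (chr11:78435961-78574874) measured 20.6, 19.1 and 20.1 CPM in vehicle, and the means of the 18 replicated extract groups ran from 22.4 to 26.0 CPM. Its log2 fold changes against the shared vehicle libraries ran from 0.16 (Guibi-tang 20 µg/mL, adjusted p = 0.201) to 0.38 (Menthae Herba 100 µg/mL, adjusted p = 0.000147). These comparisons share the 3 vehicle libraries, whose first code differs from that of every extract library, and are not independent. The share of counts from the mitochondrial genome was 13.0 to 16.4% in vehicle and 9.0 to 14.3% in the 57 extract libraries, 6 of which reached the lowest vehicle value, and its part in these results was not tested. By edgeR no comparison of 500 with 20 µg/mL called NARS2, and DESeq2 called it for Guibi-tang. IARS2 had extract means of 149.7 to 174 CPM and log2 values of 0.05 to 0.27 against vehicle, and CARS2 had means of 41.3 to 46.9 CPM and values of 0.04 to 0.22. On the other side, SARS1 ran from -0.21 to -0.02, WARS1 from -0.18 to -0.05, FARSA from -0.21 to -0.02 and TARS1 from -0.20 to 0.00. The sides did not follow compartment throughout. Mitochondrial RARS2 ran from -0.2 to -0.0, and cytosolic QARS1 ran from -0.01 to 0.15.

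The remaining members had no call against vehicle in the main fit, which does not show that they were unchanged. IARS1, LARS1, NARS1, VARS1, YARS1, EPRS1, HARS1 and RARS1 among the cytosolic genes, and AARS2, EARS2, FARS2, PARS2, TARS2, VARS2, WARS2 and YARS2 among the mitochondrial genes, were called in 0 of 18 comparisons with vehicle by edgeR. Their log2 values ran from -0.17 (VARS1) to 0.20 (PARS2). DESeq2 called EARS2 for Menthae Herba and VARS2 for Saposhnikoviae Radix, both at 500 µg/mL against vehicle. VARS2 shares 1858 exon bases (22.0%) with GTF2H4 on its own strand, so its counts are uncertain.

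The 2 sets were also set against each other in each library, as the mean log2 CPM of the 19 cytosolic genes minus that of the 16 mitochondrial genes, which is a description with no test. Vehicle stood at 1.966, 1.948 and 1.902. Menthae Herba stood at 1.978, 1.959 and 1.978 at 500 µg/mL, at 1.85 ± 0.01 at 100 µg/mL and at 1.83 ± 0.05 at 20 µg/mL. The 500 µg/mL libraries overlapped those of vehicle and lay above those of the lower doses, a difference of 0.14 from 20 µg/mL. The 51 libraries of the other 17 replicated extract groups ran from 1.790 to 1.921, and 3 of them lay above the lowest vehicle library. Against vehicle the difference at 500 µg/mL was 0.03 for Menthae Herba, -0.10 for Saposhnikoviae Radix, -0.07 for Saengmaek-san, -0.04 for Guibi-tang, -0.04 for Soyo-san and -0.11 for Okbyeongpung-san. The pooled SD was 0.02 to 0.03 for each of these.

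The mitochondrial mean log2 CPM was 5.034 ± 0.024 in vehicle (SD, n = 3). With Menthae Herba it was 5.105 ± 0.041 at 20 µg/mL, 5.140 ± 0.005 at 100 µg/mL and 5.065 ± 0.007 at 500 µg/mL. The cytosolic mean was 6.973 ± 0.016, 6.939 ± 0.008, 6.993 ± 0.004 and 7.037 ± 0.018 in the same order.

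**Figure D5:**
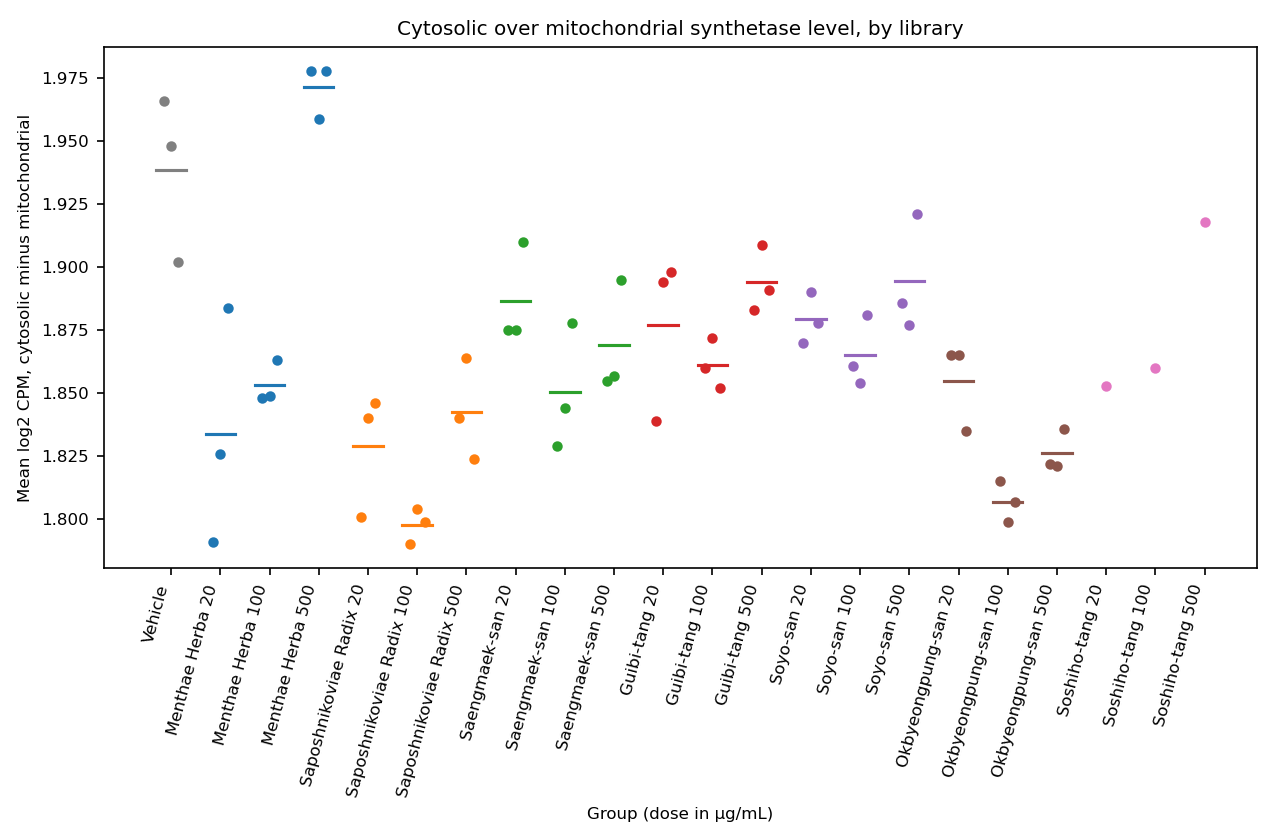
Mean log2 CPM of the cytosolic minus that of the mitochondrial synthetase genes in each of the 60 libraries (points) with the group mean (line). Menthae Herba at 500 µg/mL (1.959 to 1.978) and vehicle (1.902 to 1.966) are highest, and Saposhnikoviae Radix at 100 µg/mL has the lowest mean (1.80).

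Soshiho-tang had 1 library per dose and so no test and no replicate check. From 20 to 500 µg/mL the median log2 ratio of CPM was 0.10 over the cytosolic genes and 0.05 over the mitochondrial genes. No value over all genes was computed for these libraries, so an offset of a whole library cannot be told apart from a change of the members. The values ran from -0.13 for PARS2 to 0.24 for WARS1, which measured 81.6, 92.3 and 96.4 CPM at 20, 100 and 500 µg/mL. YARS1, the cytosolic tyrosyl enzyme, measured 115, 118 and 133 CPM. The difference of the 2 sets was 1.853, 1.860 and 1.918 in the same dose order.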

How the data were processed

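RNA-seq of HepG2 was deposited as tables of estimated counts per gene (RSEM expected counts). Per the submitters' processing notes the authors used FastQC 0.11.9, Trim Galore 0.6.5, STAR 2.7.3a and RSEM 1.3.3 on GRCh38. Their annotation and strand setting: not given in the sources used here. Of nonzero values 71.9% are whole, and all were rounded. Symbols came from a gene name table (56558 IDs) and GENCODE v29 (497 more), positions from GENCODE v29.

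The 57 replicated libraries in 19 groups were fitted together with edgeR 4.0.16 (R 4.3.3): filterByExpr at a minimum count of 10 (16644 genes), TMM scaling, robust quasi-likelihood F tests, Benjamini-Hochberg over all genes. CPM use TMM-adjusted totals, apart from the marker sums, which use raw totals. Log2 CPM used a prior count of 2. Scripts were tested on simulated data. The 27 comparisons are 18 with vehicle, 6 of 500 with 20 µg/mL and 3 between extracts.

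The members and lists were chosen with earlier results of these data known. Values per library are given for the 3 largest calls per compartment in Menthae Herba at 500 µg/mL, the 2 largest per compartment in Guibi-tang and Soyo-san from 20 to 500 µg/mL, any called in 1 direction in at least 4 of the 6 dose comparisons (there were none), and pairs called in opposite directions. Other genes named were chosen after their values were seen. Alternatives were RLE scaling, no filter, DESeq2 1.42.0, only the groups compared, replicate blocks and leaving out each library. The MALAT1 classes were added after seeing the data.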

Additional observations from a re-analysis of the deposited data

Results flagged for a closer look

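The results listed here are the members whose level differed between 2 extracts at 500 µg/mL, tested in edgeR (quasi-likelihood F test, Benjamini-Hochberg adjusted p over all genes). Both extracts of a pair were compared directly, and each value is a log2 difference.

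Between Menthae Herba and Saposhnikoviae Radix, the members higher with Menthae Herba were CARS1 (0.54), GARS1 (0.45), MARS1 (0.35), HARS2 (0.22), AARS1 (0.19), TARS1 (0.15) and EPRS1 (0.12). FARSB (-0.42), MARS2 (-0.22), EARS2 (-0.20) and SARS2 (-0.20) were lower.

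With Saengmaek-san the levels of IARS1 (0.21), IARS2 (0.19), EARS2 (0.19), MARS1 (0.18) and EPRS1 (0.16) were above those with Guibi-tang. With Soyo-san CARS1 (0.20) and GARS1 (0.17) were above and FARSB (-0.16) was below the level with Okbyeongpung-san. None of these last 8 differences was called in every alternative.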

How the results depend on the processing

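For Menthae Herba at 500 µg/mL the counts of members called stayed between 8 and 12 of 35 when single libraries were left out (9 to 11 against vehicle, 9 to 12 against 20 µg/mL, 8 to 11 against Saposhnikoviae Radix), and moved by less than 1.5 times under every other setting. Of 68 calls against vehicle, 18 held in every alternative. Counts of members have no direction and so cannot reverse. No called member changed sign, and no difference of the set means reversed by more than the SD between replicates. The cause of each move below was not tested. Of 2835 member values with RLE scaling, DESeq2 or no filter, 33 differed in sign from the main fit, 0 of them called. With RLE scaling or DESeq2 the all-gene median lay at most 0.0062 from 0 in log2.

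In the order Menthae Herba 100 and 20, Saposhnikoviae Radix 500 and 100, Saengmaek-san 500, Guibi-tang 500, 100 and 20, Soyo-san 500, Okbyeongpung-san 500 and 20 µg/mL against vehicle, then Saengmaek-san against Guibi-tang and Soyo-san against Okbyeongpung-san, the counts without a filter were 3, 0, 2, 3, 2, 2, 1, 0, 1, 0, 2, 2 and 0. For Menthae Herba at 500 µg/mL the filter's absence ended the calls of CARS2 and QARS1 against vehicle, of EPRS1, RARS1 and TARS1 against 20 µg/mL and of EPRS1 and TARS1 against Saposhnikoviae Radix. With only the groups compared in the fit the counts were 4 (Menthae Herba 100), 0 (Menthae Herba 20), 0 (Saposhnikoviae Radix 500), 2 (Saengmaek-san 500), 0 (Saengmaek-san 100), 2, 1 and 0 (Guibi-tang 500, 100 and 20), 3, 4 and 0 (Okbyeongpung-san 500, 100 and 20), 0 (Saengmaek-san against Guibi-tang) and 7 (Soyo-san against Okbyeongpung-san). DESeq2 called 8 (Saengmaek-san 500), 2 (Saengmaek-san 100), 2 (Guibi-tang 20), 2 (Soyo-san 100), 1 (Soyo-san 20), and for 500 against 20 µg/mL 1 (Saengmaek-san) and 4 (Guibi-tang). With RLE scaling the last was 2.

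Same-numbered libraries were at most weakly correlated, from -0.14 to 0.195, and in no comparison were all 3 over 0.1. Each library still correlated best with its own number for Saengmaek-san against Guibi-tang at 500 µg/mL (0.112, 0.077 and 0.158). The same held for Soyo-san against Okbyeongpung-san at 500 µg/mL (0.025, 0.044 and 0.034) and Saposhnikoviae Radix at 500 µg/mL against vehicle (0.024, 0.022 and 0.008). With the replicate block 1 member was called for Soyo-san at 20 µg/mL. With the replicate block within the first code number of the sample description the counts were 12 (Menthae Herba 100), 8 (Saengmaek-san 500), 2 (Guibi-tang 20), 2 (Soyo-san 100), 2 (Soyo-san 20), and for 500 against 20 µg/mL 1 (Saengmaek-san) and 4 (Guibi-tang). All other counts stayed within 1.5 times.

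Added after seeing the data, the fit with the MALAT1 class as a term called 11 (Menthae Herba 100), 12 and 4 (Saengmaek-san 500 and 100), 0 (Guibi-tang 20), 5, 1 and 2 (Soyo-san 500, 100 and 20), 12 (Okbyeongpung-san 100), 1 and 1 (Saengmaek-san and Soyo-san, 500 against 20 µg/mL) and 5 (Soyo-san against Okbyeongpung-san). In lower class libraries alone Guibi-tang gave 2, 0 and 0 at 500, 100 and 20 µg/mL and 0 for 500 against 20 µg/mL. Guibi-tang then held 1 library each at 100 and 20 µg/mL, assumed to vary like the other groups, so these zeros say nothing of stability.

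Leaving out each library in turn gave, at 500, 100 and 20 µg/mL against vehicle, 9 to 11, 2 to 9 and 0 to 4 for Menthae Herba, 0 to 4, 1 to 5 and 2 to 5 for Saposhnikoviae Radix, 3 to 5, 0 to 1 and 0 for Saengmaek-san, 2 to 5, 1 to 3 and 0 to 2 for Guibi-tang, 0 to 4, 0 to 1 and 0 to 1 for Soyo-san, and 1 to 2, 4 to 8 and 1 to 6 for Okbyeongpung-san. For 500 against 20 µg/mL the range was 0 to 1 for Saengmaek-san, 1 to 4 for Guibi-tang and 0 for Saposhnikoviae Radix, Soyo-san and Okbyeongpung-san. It was 0 to 7 for Saengmaek-san against Guibi-tang and 1 to 3 for Soyo-san against Okbyeongpung-san. The differences of the cytosolic and mitochondrial means at 500 µg/mL moved from the values reported by less than the SD between replicates with a prior count of 0.5, without GARS1 and KARS1, as a ratio of summed CPM and without each library in turn. For Menthae Herba 500 the last gave 0.117 to 0.163 against 20 µg/mL and 0.015 to 0.047 against vehicle, and the ratio of summed CPM gave 0.113 and 0.019.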
